A study of Mus musculus with 2 samples.

Results

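RNA-Seq of brown preadipocytes (D0) and differentiated brown adipocytes (D7) was examined for 50 genes of mitosis, the kinetochore and cytokinesis. The genes were taken by symbol from the deposited table, and all 50 were found among its 23361 genes with values. Both stages were grown from interscapular brown fat of C57BL/6 pups (C57BL/6J in the methods of the study), newborn at isolation, with 1 library per stage and no genotype or strain difference between them. By the labels, D0 cells had been kept in medium with insulin and T3 and were collected before induction. D7 cells had then received IBMX, dexamethasone and indomethacin for 2 days and had been returned to insulin and T3. The labels give primary brown preadipocytes as the source of both, whereas the methods of the study describe immortalization with a retrovirus that carries large T, a viral protein that binds the retinoblastoma family of cell cycle repressors. No uninduced culture of day 7 was used here, so induction and time in culture cannot be told apart.

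Cells enter mitosis when cyclin-dependent kinase 1 is switched on by B-type cyclins and Cdc25 phosphatases. Condensins and topoisomerase II then compact the chromosomes, kinetochores attach them to the spindle, and a checkpoint holds the anaphase-promoting complex in check until every chromosome is attached. After anaphase, the central spindle and a contractile ring divide the cell. Transcripts of many of these genes peak in G2 and M phase and are low in cells that have left the cycle. Preadipocytes in culture divide, and mature adipocytes are in general not dividing cells.

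Values are FPKM, fragments per kb of transcript scaled to library size, as the authors deposited them. The values corresponded to 21471470 fragments at D0 and 18265702 at D7, recovered from single-exon genes. The number of fragments behind each value is approximate in genes with several exons, and each ratio has an exact 95% Clopper-Pearson interval computed from it. Such an interval describes counting error between the 2 libraries and no spread between cultures. With no replicate library to compare, no p-value was computed. A gene is called lower or higher at D7 by a 2-fold limit on the ratio of deposited FPKM, the limit given in the methods of the study. The folds that the study lists are not plain ratios of these values, as its Foxm1 is at 0.21 and the ratio here is 0.269. With a floor of 0.01 and division by the library median, Foxm1 was at 0.211. All 8 adipocyte markers, Pparg and Fabp4 among them, were higher at D7, with summed FPKM of 82.3 at D0 and 18430 at D7. Of the 7 markers of preadipocytes and fibroblasts, 3 were lower and 1 was higher. Of the 5 brown adipocyte markers, Ucp1, Cidea and Elovl3 were listed at 0 at D0 and above 0 at D7, and Ppargc1a was at 0.0370 FPKM at D0 and 4.41 at D7. Prdm16 did not go with them, at 0.835 and 1.02 FPKM, and the interval of its ratio, 0.965 to 1.53, holds 1. Of the 11 macrophage markers, 10 were higher at D7, with summed FPKM of 155.7 at D0 and 583.6 at D7 and none at 0, and their part in the results on mitotic genes was not tested. Skeletal muscle markers summed to 51.2 at D0 and 4.81 at D7, of which Acta1 alone held 45.4 and 1.73, and Myod1 and Ckm were listed at 0 in both libraries. Endothelial markers summed to 1.58 and 2.62, and erythroid markers to 0.0265 and 0.0312.

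Most of the mitotic genes were lower in adipocytes. All 50 were above 0 in both libraries, and 41 of them (82.0%) were lower at D7 by at least 2-fold, against 13.2% of the 14986 genes above 0 in both libraries. None was higher by at least 2-fold, against 18.5% of all genes. The median log2 ratio of D7 to D0 was -2.07 over the 50 genes, a 4.2-fold lower value at D7, and 0.02 over all genes. As bulk RNA was measured, fewer dividing cells and less RNA of these genes per cell cannot be told apart. The median moved to -2.09 when the libraries were centred on the median ratio of all genes. It was -1.20 when they were scaled to the ribosomal protein genes, a scaling that also moved the median of all genes, to 0.89.

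The 2-fold limit divides the ratios into a lower body of 41 genes and a small upper group. Of the 41, 6 were lower by over 8-fold and 30 by at least 4-fold, and the intervals of all 41 lay wholly below 0.5. The shares of all genes at these limits were not computed. The lower body ended with Anln at 0.374 (95% interval 0.318 to 0.438), and the next gene was Incenp at 0.543 (0.455 to 0.644), whose interval did not overlap that of Anln. Among the 49 neighbouring pairs in the order of ratios, intervals were apart in 3, which were this one, Cdc25b and Smc4, and Smc4 and Pttg1. Incenp, Smc2, Ncapd2, Bub3, Spc25, Mad2l1 and Cdc25b had ratios between 0.5 and 1, Smc4 could not be separated from 1, and Pttg1 was above 1. The numbers of fragments ranged from 50 to 2128 at D0, with a median of 241, and from 5 to 1358 at D7, with a median of 45. At an FPKM of at least 1, 46 of the 50 were seen at D0 and 27 at D7. The share of all genes at that level in each library was not computed.

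**Figure D1:**
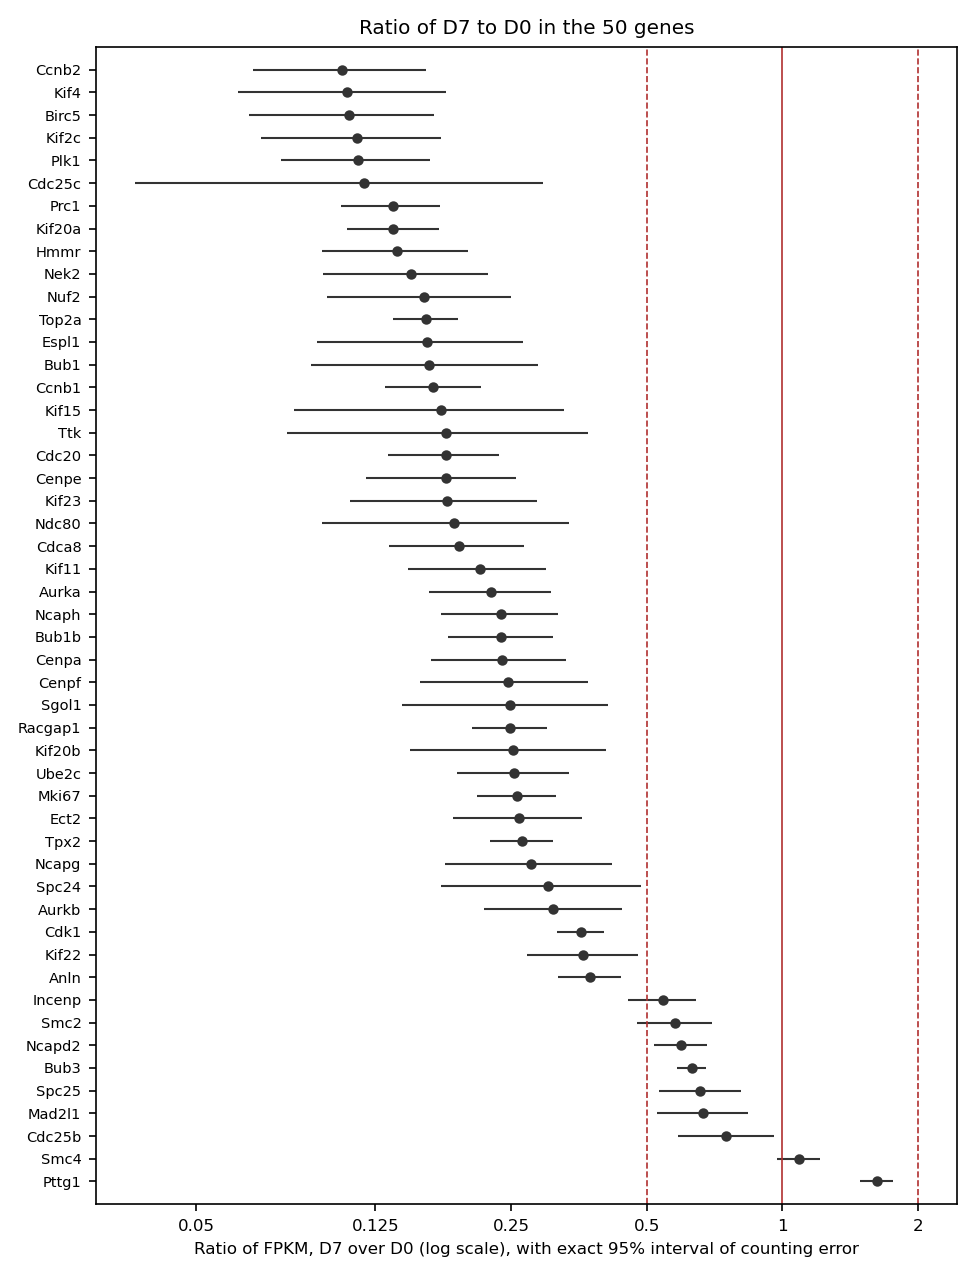
Ratio of FPKM at D7 over D0 (x axis, log scale) for each of the 50 genes (y axis), from 1 library per stage, ordered by ratio; points are ratios, bars are exact 95% intervals of counting error, the solid line marks 1 and dashed lines mark 0.5 and 2. The bars of 41 genes end below 0.5, and the bar of Pttg1 alone starts above 1.

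The promoters of these genes are shown next because a large share of them carry the same short elements. The CCAAT box is the site bound by NF-Y, and the cell cycle genes homology region (CHR), with the letters TTTGAA or TTCGAA, is bound by the MuvB complex, which represses genes in resting cells and with B-Myb and FoxM1 activates them in G2 and M phase. RefSeq promoters of build GRCm38.p6, from 250 bases before the transcription start to 50 after it, were matched to 43 of the 50 genes and read on both strands, and matches of different motifs were counted separately where they overlapped. Aurkb, Cdc25c, Spc24, Tpx2, Smc4, Incenp and Kif20a had no entry. Given here are the 3 lowest and the 3 highest ratios among members with such an entry, at least 20 fragments in both libraries and a RefSeq start within 100 bp of the transcript in the table. In them, capitals mark the CCAAT box (written ATTGG on the other strand) and the CHR letters given above.
Ccnb2: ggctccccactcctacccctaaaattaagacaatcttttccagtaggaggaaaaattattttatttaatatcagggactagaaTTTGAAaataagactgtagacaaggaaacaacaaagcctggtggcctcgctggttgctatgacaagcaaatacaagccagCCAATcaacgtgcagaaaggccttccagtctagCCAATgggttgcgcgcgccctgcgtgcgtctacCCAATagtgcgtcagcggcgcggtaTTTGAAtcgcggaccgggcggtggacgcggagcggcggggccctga
Birc5: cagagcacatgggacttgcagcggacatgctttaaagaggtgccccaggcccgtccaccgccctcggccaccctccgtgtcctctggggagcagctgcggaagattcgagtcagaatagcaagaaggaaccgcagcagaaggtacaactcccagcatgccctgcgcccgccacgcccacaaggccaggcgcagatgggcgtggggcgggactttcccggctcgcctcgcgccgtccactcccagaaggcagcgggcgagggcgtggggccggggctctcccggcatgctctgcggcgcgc
Plk1: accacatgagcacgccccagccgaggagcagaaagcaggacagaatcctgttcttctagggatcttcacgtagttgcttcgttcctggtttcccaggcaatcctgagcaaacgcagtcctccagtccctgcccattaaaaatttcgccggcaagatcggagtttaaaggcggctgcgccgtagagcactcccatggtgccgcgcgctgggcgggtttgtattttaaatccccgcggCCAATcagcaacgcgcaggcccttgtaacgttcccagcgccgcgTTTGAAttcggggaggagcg
Spc25: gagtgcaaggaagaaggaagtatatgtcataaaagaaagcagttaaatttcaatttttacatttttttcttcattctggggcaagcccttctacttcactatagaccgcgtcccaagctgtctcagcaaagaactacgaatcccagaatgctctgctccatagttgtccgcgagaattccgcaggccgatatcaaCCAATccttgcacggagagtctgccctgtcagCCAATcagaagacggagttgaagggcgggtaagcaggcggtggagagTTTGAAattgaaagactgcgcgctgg
Cdc25b: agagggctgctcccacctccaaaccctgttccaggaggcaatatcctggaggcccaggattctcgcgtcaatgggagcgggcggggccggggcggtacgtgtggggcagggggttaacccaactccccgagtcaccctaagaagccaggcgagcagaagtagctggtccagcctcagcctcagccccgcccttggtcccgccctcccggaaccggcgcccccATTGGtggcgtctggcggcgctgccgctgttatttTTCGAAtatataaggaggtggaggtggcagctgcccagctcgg
Pttg1: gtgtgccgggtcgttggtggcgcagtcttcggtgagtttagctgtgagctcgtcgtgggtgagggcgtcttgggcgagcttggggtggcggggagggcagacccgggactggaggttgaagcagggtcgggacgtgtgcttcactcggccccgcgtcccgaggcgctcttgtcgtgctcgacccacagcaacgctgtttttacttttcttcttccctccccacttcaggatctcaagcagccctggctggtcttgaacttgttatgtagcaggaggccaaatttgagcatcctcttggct

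These windows are chr9:70421505-70421804 on the minus strand for Ccnb2, chr11:117848987-117849286 on the plus strand for Birc5 and chr7:122159185-122159484 on the plus strand for Plk1. They are chr2:69206164-69206463 on the minus strand for Spc25, chr2:131186698-131186997 on the plus strand for Cdc25b and chr11:43425932-43426231 on the minus strand for Pttg1. Distances are counted from the start base to the first letter of a match, read from left to right. Ccnb2 held 3 CCAAT boxes, which began 87, 54 and 21 bases before the start, and a TTTGAA 4 bases after it, with a further TTTGAA 167 bases before it. Plk1 held 1 CCAAT box 14 bases before the start and a TTTGAA 30 bases after it. Spc25, although its ratio was 0.655, held the same arrangement, with CCAAT boxes 55 and 23 bases before the start and a TTTGAA 24 bases after it. Cdc25b held a CCAAT box 28 bases before the start and a TTCGAA 7 bases after it. Birc5, which had one of the lowest ratios, and Pttg1, which had the highest, held none of these letters. The locus given for Pttg1 in the table runs 267 bp upstream of the RefSeq start, and that given for Cdc25b runs 59537 bp upstream, so transcripts that begin elsewhere are not covered by these windows.

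Over the 43 promoters, 33 (76.7%) held a CCAAT box, against 38.3% of the 11741 promoters of genes above 0 in both libraries and 38.9% of all 17634 promoters. A pair or more of CCAAT boxes was found in 48.8% of the 43, and in 14.3% of the genes above 0. TTTGAA or TTCGAA was found in 35 (81.4%), against 13.8% of the genes above 0 and 17.3% of all promoters. The position was close to the start in most, as 32 of the 43 (74.4%) held one within 50 bases of it, against 3.42% of the genes above 0. Both elements together were found in 69.8% of the 43 and in 5.81% of the genes above 0. Among genes of DNA replication, which are transcribed earlier in the cycle, 66.7% of 30 promoters held a CCAAT box and 16.7% held TTTGAA or TTCGAA. These letters were found in 83.3% of the 36 members that were lower by at least 2-fold and in 5 of the other 7. The RefSeq start lay over 100 bp from that of the named transcript in 6 members, and without such genes 81.1% of 37 members and 14.0% of 9570 genes held TTTGAA or TTCGAA. A match describes letters in the window, and binding was not measured.

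**Figure D2:**
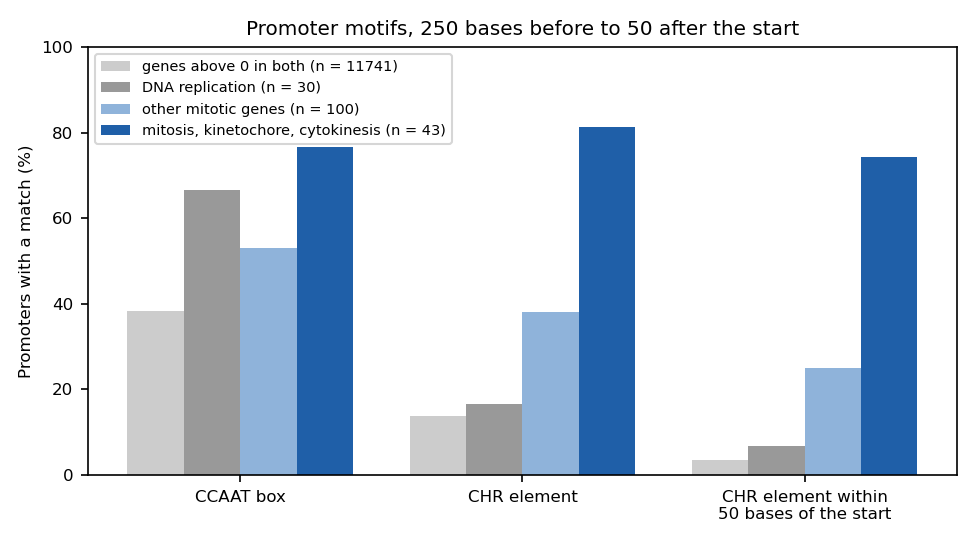
Share of promoters (y axis, %) with a CCAAT box, with a CHR element (TTTGAA or TTCGAA), or with a CHR element within 50 bases of the start (x axis), in 4 sets of genes drawn as bars. The CHR element was found in 81.4% of the 43 promoters of the mitosis, kinetochore and cytokinesis genes, in 38% of 100 promoters of other mitotic genes, in 16.7% of 30 of DNA replication and in 13.8% of genes above 0 in both libraries.

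Of the 8 kinases, cyclins and phosphatases of mitotic entry, 7 were lower at D7 by at least 2-fold, with a median ratio of 0.158. Ccnb2 (ENSMUSG00000032218.7, GENCODE M21 on mm10, chromosome 9, 70407692 to 70421547), a B-type cyclin, had an FPKM of 9.16 at D0 against 0.967 at D7, from 266 and 24 fragments. Its ratio of 0.106 (0.0669 to 0.162) was the lowest of the 50, a 9.48-fold lower value at D7. Plk1 (ENSMUSG00000030867.7, chromosome 7, 122159439 to 122169873), the polo-like kinase of spindle assembly and mitotic exit, stood at 7.57 FPKM at D0 and at 0.867 at D7, a ratio of 0.115 (0.0773 to 0.165). Both hold the paired elements printed above. Ccnb1, the other mitotic B-type cyclin, measured 10.9 FPKM at D0 against 1.82 at D7, a ratio of 0.168 (0.131 to 0.214). Of its transcript, 31.2% of stretches of 90 bases also occur in annotated pseudogenes such as Ccnb1-ps, so its value is uncertain.

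Cdk1 (ENSMUSG00000019942.13, chromosome 10, 69335146 to 69352938), the kinase that these cyclins activate, had an FPKM of 13.0 at D0 against 4.64 at D7, from 1171 and 355 fragments. Its ratio of 0.357 (0.316 to 0.402) was higher than those of both cyclins, with intervals apart from theirs. Relative to Cdk1, Ccnb2 was at 0.705 of its FPKM at D0 and 0.208 at D7, and Ccnb1 at 0.837 and 0.393. The kinase transcript was thus lower by a smaller factor than those of its partners. Aurka, the spindle pole kinase, stood at 7.18 FPKM at D0 and at 1.62 at D7, a ratio of 0.226, and Nek2, a centrosome kinase, had 3.27 and 0.490, a ratio of 0.150. The phosphatases that activate Cdk1 differed from each other. Cdc25c measured 1.32 FPKM at D0 against 0.156 at D7, a ratio of 0.118 (0.0366 to 0.294) on 50 and 5 fragments. Cdc25b (ENSMUSG00000027330.16, chromosome 2, 131186949 to 131198497) had 2.84 and 2.13, a ratio of 0.752 (0.588 to 0.957), and did not reach 2-fold. The intervals of the pair do not overlap, and the FPKM of Cdc25b was 2.15 times that of Cdc25c at D0 and 13.7 times at D7. The locus given for Cdc25b spans 11 other coding genes, and its ratio was 1.38 when libraries were scaled to ribosomal protein genes, so its direction depends on the scaling.

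**Figure D3:**
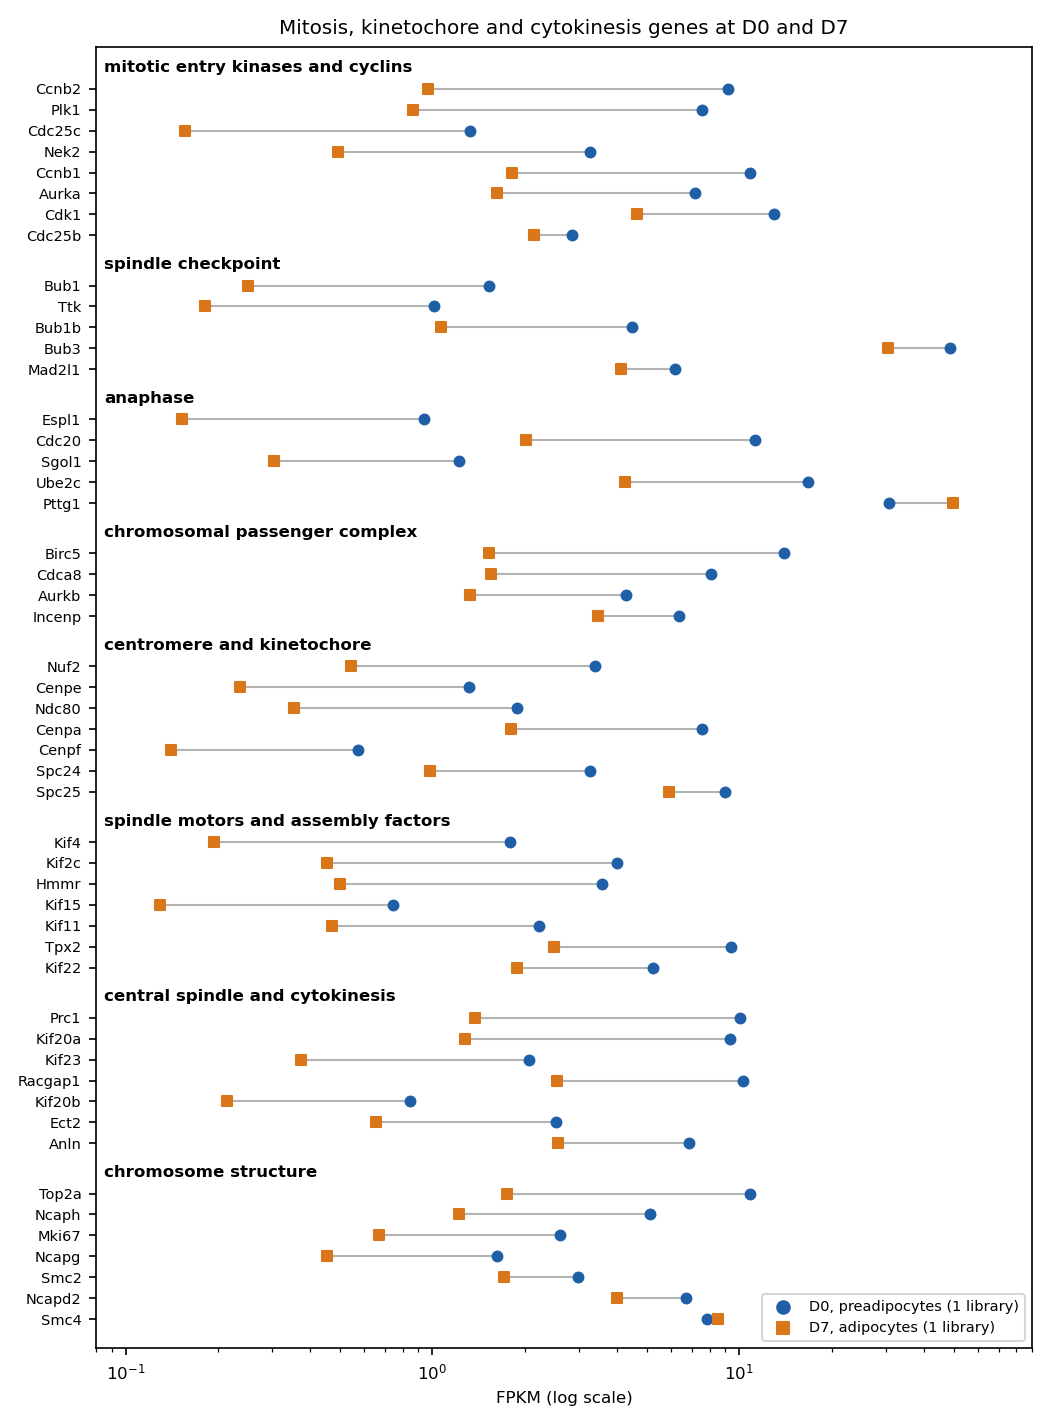
FPKM (x axis, log scale) of the 50 genes (y axis) at D0 (circles) and D7 (squares), 1 library each, grouped by role; lines join the 2 values of a gene. Squares lie left of circles in 48 genes, and Smc4 and Pttg1 are the exceptions.

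Of the 5 spindle checkpoint genes, the 3 of the kinase families Bub1 and Ttk were lower by at least 2-fold. Bub1 had an FPKM of 1.52 at D0 against 0.25 at D7, a ratio of 0.164 (0.0900 to 0.287), and Ttk, which starts checkpoint signalling at the kinetochore, had 1.01 and 0.181, a ratio of 0.180 (0.0795 to 0.371). Bub1b, the BubR1 component of the inhibitor of the anaphase-promoting complex, stood at 4.48 FPKM at D0 and at 1.07 at D7, a ratio of 0.238 (0.181 to 0.310). The smaller proteins Bub3 and Mad2l1 were within 2-fold. Bub3 (ENSMUSG00000066979.6, chromosome 7, 131560222 to 131571895), a WD-repeat partner of Bub1 and BubR1, measured 48.6 FPKM at D0 against 30.6 at D7, a ratio of 0.629 (0.585 to 0.676) on 2128 and 1137 fragments. Mad2l1, the Mad2 protein that binds Cdc20, had 6.18 and 4.12, a ratio of 0.667 (0.526 to 0.841). Bub3 was thus at 31.9 times the FPKM of Bub1 at D0 and at 122 times at D7. Scaled to ribosomal protein genes, the ratios of Bub3 and Mad2l1 turned to 1.15 and 1.22. With a floor of 0.01 and division by the library median, Bub3 was at 0.493.

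Of the 5 genes of anaphase, 4 were lower by at least 2-fold and 1 was higher by less than 2-fold. Cdc20, the activator of the anaphase-promoting complex, had an FPKM of 11.2 at D0 against 2.02 at D7, a ratio of 0.180 (0.133 to 0.235). Ube2c, the ubiquitin-conjugating enzyme that works with that complex, had 16.7 and 4.24, a ratio of 0.254 (0.190 to 0.336). Espl1, the protease separase that cuts cohesin, had 0.938 and 0.153, a ratio of 0.163 (0.0929 to 0.266), on 131 and 18 fragments. Sgol1 (named Sgo1 in current annotation), the shugoshin that shields centromeric cohesin, stood at 1.22 FPKM at D0 and at 0.304 at D7, a ratio of 0.248. Pttg1 (ENSMUSG00000020415.16, chromosome 11, 43420250 to 43426251) encodes securin, the inhibitor of separase and a substrate of the anaphase-promoting complex. Its FPKM was 30.8 at D0 and 49.8 at D7, from 988 and 1358 fragments, the only ratio with an interval above 1, at 1.62 (1.49 to 1.76). Securin transcripts were thus at 32.8 times the FPKM of separase at D0 and at 326 times at D7. The ratio of Pttg1 stayed above 1 under the scalings tried and reached 2.97 when libraries were scaled to ribosomal protein genes. The 5 genes together had 1881 fragments at D0 and 1515 at D7, of which Pttg1 held 988 and 1358.

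The chromosomal passenger complex corrects faulty attachments and later acts in cytokinesis. Birc5 (ENSMUSG00000017716.15, chromosome 11, 117849251 to 117855743), its subunit survivin, measured 14.0 FPKM at D0 against 1.53 at D7, a ratio of 0.109 (0.0654 to 0.169) on 230 and 21 fragments. Cdca8, the subunit borealin, had 8.11 and 1.55, a ratio of 0.192 (0.134 to 0.267), and Aurkb, the kinase subunit, had 4.27 and 1.33, a ratio of 0.311 (0.218 to 0.440). Incenp, the scaffold that holds the kinase, had an FPKM of 6.38 at D0 against 3.46 at D7, a ratio of 0.543 (0.455 to 0.644). The 4 subunits of a single complex thus spanned ratios from 0.109 to 0.543. Incenp went from 0.457 of the FPKM of Birc5 at D0 to 2.27 times at D7. With a floor of 0.01 and division by the library median, Incenp was at 0.425 and past 2-fold. Scaled to ribosomal protein genes, it was at 0.996, so whether Incenp was lower at all depends on the scaling.

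The 7 centromere and kinetochore genes showed the same unevenness within a complex. The Ndc80 complex, which holds the ends of microtubules, has 4 subunits, all of them measured. Ndc80 stood at 1.89 FPKM at D0 and at 0.353 at D7, a ratio of 0.187 (0.0953 to 0.337). Nuf2 had 3.39 and 0.542, a ratio of 0.160 (0.0975 to 0.25), and Spc24 had 3.26 and 0.985, a ratio of 0.302 (0.175 to 0.486). Spc25 (ENSMUSG00000005233.16, chromosome 2, 69193895 to 69206194) measured 8.98 FPKM at D0 against 5.88 at D7, a ratio of 0.655 (0.532 to 0.808), and its interval was apart from those of the other subunits. Spc25 stood at 2.75 times the FPKM of Spc24, with which it pairs, at D0 and at 5.97 times at D7. Scaled to ribosomal protein genes, its ratio was 1.20 and that of Spc24 was 0.554. Cenpa, the histone variant that marks centromeres, had an FPKM of 7.56 at D0 against 1.80 at D7, a ratio of 0.238 (0.166 to 0.331). Cenpe, a kinesin of the kinetochore, had a ratio of 0.180 and Cenpf, a large kinetochore protein, of 0.246, at FPKM of 1.32 and 0.570 at D0 and 0.237 and 0.140 at D7.

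All 7 genes of spindle motors and assembly were lower by at least 2-fold, with a median ratio of 0.175. Kif4, a chromosome-bound kinesin, stood at 1.79 FPKM at D0 and at 0.193 at D7, a ratio of 0.108 (0.0620 to 0.179), although 15.2% of its stretches of 90 bases also occur in Pdzd11. Kif2c, a kinesin that takes microtubules apart, had 4.01 and 0.455, a ratio of 0.114 (0.0695 to 0.175). Hmmr, a spindle pole protein, had 3.58 and 0.499, a ratio of 0.139. These were the lowest ratios among the 7. Kif11 and Kif15, which push the spindle poles apart, had ratios of 0.213 and 0.175, from FPKM of 2.22 and 0.742 at D0 and 0.472 and 0.130 at D7. Tpx2, which nucleates microtubules and activates Aurora A, measured 9.41 FPKM at D0 against 2.49 at D7, a ratio of 0.264 (0.225 to 0.310). It was at 1.31 times the FPKM of Aurka at D0 and 1.54 times at D7. Kif22, a chromosome-arm kinesin, had 5.24 and 1.89, a ratio of 0.361 (0.271 to 0.478), which became 0.662 when libraries were scaled to ribosomal protein genes.

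All 7 genes of the central spindle and cytokinesis were also lower by at least 2-fold, with a median ratio of 0.249. Prc1, which bundles the microtubules of the central spindle, had an FPKM of 10.0 at D0 against 1.37 at D7, a ratio of 0.137 (0.105 to 0.174). Kif20a, a kinesin of the same structure, had 9.33 and 1.28, a ratio of 0.137 (0.108 to 0.173). Of the stretches of 90 bases of these genes, 21.6% also occur in Rccd1 and 28.2% in Cdc23. The locus given for Prc1 also spans Rccd1, and that for Kif20a spans Brd8 and Cdc23, so both values are uncertain. Cdc23 itself had 20.95 FPKM at D0 and 15.29 at D7. Kif23 and Racgap1 form the centralspindlin complex. Kif23 stood at 2.07 FPKM at D0 and at 0.371 at D7, a ratio of 0.180 (0.110 to 0.285), and Racgap1 had 10.3 and 2.55, a ratio of 0.249 (0.205 to 0.301). Their intervals overlap, so no difference between the partners was detectable at this depth. Kif20b, a kinesin of late cytokinesis, and Ect2, which activates RhoA at the division site, had ratios of 0.252 and 0.260, from FPKM of 0.848 and 2.52 at D0 and 0.214 and 0.656 at D7. Anln, a scaffold of the contractile ring, had 6.85 and 2.56, a ratio of 0.374, which became 0.686 when libraries were scaled to ribosomal protein genes. The locus given for Anln also spans 11 other coding genes.

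Chromosome structure genes ranged in ratio from 0.162 to 1.09, with 4 of 7 lower by at least 2-fold. Top2a, the topoisomerase that untangles sister chromatids, measured 10.8 FPKM at D0 against 1.75 at D7, a ratio of 0.162 (0.137 to 0.191) on 1169 and 161 fragments. Mki67, the surface protein of mitotic chromosomes known as the proliferation marker Ki-67, had 2.60 and 0.670, a ratio of 0.258 (0.210 to 0.315). Both were lower by at least 2-fold and are widely used as markers of dividing cells. The 5 subunits of condensin I, the ring that compacts chromosomes, spanned ratios from 0.238 to 1.09. Ncaph, the kleisin subunit, had an FPKM of 5.13 at D0 against 1.22 at D7, a ratio of 0.238 (0.175 to 0.318), and Ncapg had 1.63 and 0.452, a ratio of 0.277 (0.178 to 0.418). The locus given for Ncapg also spans the coding gene Lcorl, in which 16.9% of its stretches of 90 bases also occur. Ncapd2 had 6.71 and 4.01, a ratio of 0.597 (0.519 to 0.682), and Smc2, an ATPase subunit that condensin II shares, had 2.97 and 1.72, a ratio of 0.577 (0.475 to 0.699). Smc4 (ENSMUSG00000034349.14, chromosome 3, 69004738 to 69034623), the other shared ATPase, stood at 7.84 FPKM at D0 and at 8.53 at D7, a ratio of 1.09 (0.976 to 1.21) whose interval holds 1. Smc4 stood at 1.53 times the FPKM of Ncaph at D0 and at 6.99 times at D7. The directions of 3 of these genes depend on the scaling, as Ncapd2 and Smc2 were at 1.09 and 1.06 when scaled to ribosomal protein genes and Smc4 at 0.853 with a floor of 0.01 and division by the library median.

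Summed over the 50 genes, fragments were 18833 at D0 and 6609 at D7, a ratio after scaling to library size of 0.413 (0.401 to 0.424). Pttg1 and Bub3, which were the most abundant by FPKM in both libraries, are among the genes with high ratios, so the sum differed less than the median gene. By role, the ratio of summed fragments was lowest for spindle motors and assembly factors, at 0.218 (0.195 to 0.243), and for central spindle and cytokinesis, at 0.225 (0.205 to 0.246), whose intervals overlap. It was 0.267 for mitotic entry, 0.312 for centromere and kinetochore, 0.330 for the chromosomal passenger complex, 0.465 for chromosome structure, 0.558 for the spindle checkpoint and 0.947 (0.884 to 1.01) for anaphase. Single abundant genes carry some of these sums, as Bub3 held 2128 of the 2833 checkpoint fragments at D0 and Cdk1 held 1171 of the 3012 of mitotic entry. The median ratios ranked the roles otherwise, with mitotic entry lowest at 0.158, spindle motors at 0.175, and the checkpoint and anaphase at 0.238 and 0.248. The FPKM of the most abundant gene was 85.2 times that of the least abundant at D0 and 384 times at D7. The genes lie on 16 chromosomes, with at most 8 on a single one, chromosome 2.

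The other genes of the pathway were taken from lists of 122 further mitotic genes, 121 of them with values. Of these, 46 (38%) were lower by at least 2-fold and 2 (1.65%) were higher, against 13.2% and 18.5% of all genes. Their median log2 ratio was -0.51, and it turned to 0.36 when libraries were scaled to ribosomal protein genes. The counts varied between the lists, a difference that was not tested. Of 14 other mitotic kinases, cyclins and substrates, 9 were lower, and of 33 other kinetochore and centromere genes 16 were lower. Of 32 other spindle and centrosome genes 15 were lower and 1 was higher, and of 11 other genes of cytokinesis and abscission 4 were lower. The subunits and partners of the anaphase-promoting complex had a median ratio of 0.828, with 1 of 16 (6.25%) lower. Cohesin and condensin II genes had a median of 1.35, with 1 of 15 (6.67%) lower and 1 higher. In both lists, the shares called are below those of all genes. Scaled to ribosomal protein genes, these 2 medians were 1.52 and 2.47, so the direction of the first depends on the scaling. As log2 ratios they were 0.60 and 1.31, against 0.89 for all genes in that scaling. Cohesin also holds chromosomes in cells that do not divide, and the anaphase-promoting complex has roles outside mitosis. Whether this bears on the 2 medians was not tested.

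Among these further genes, the lowest ratio at an FPKM of at least 1 in a library was that of Cenph, an inner kinetochore protein, with 3.03 FPKM at D0 against 0.155 at D7. It rests on 70 and 3 fragments, and the value at D7 is at the limit of 3 fragments. Pbk and Melk, kinases of dividing cells, had ratios of 0.0889 and 0.0931, from FPKM of 5.05 and 3.01 at D0 and 0.449 and 0.281 at D7. Dlgap5, a spindle protein, and Kntc1, the Rod protein of the kinetochore, both had a ratio of 0.115. The highest ratios were mostly those of cohesin genes. The cohesin subunit Stag2 measured 9.38 FPKM at D0 against 20.9 at D7, a ratio of 2.23. The cohesin regulators Esco1, Nipbl and Wapal had ratios of 1.94, 1.60 and 1.56. Haus3, an augmin subunit, had 3.78 and 11.7, a ratio of 3.11, and the locus given for it also spans the coding gene Poln.

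**Figure D4:**
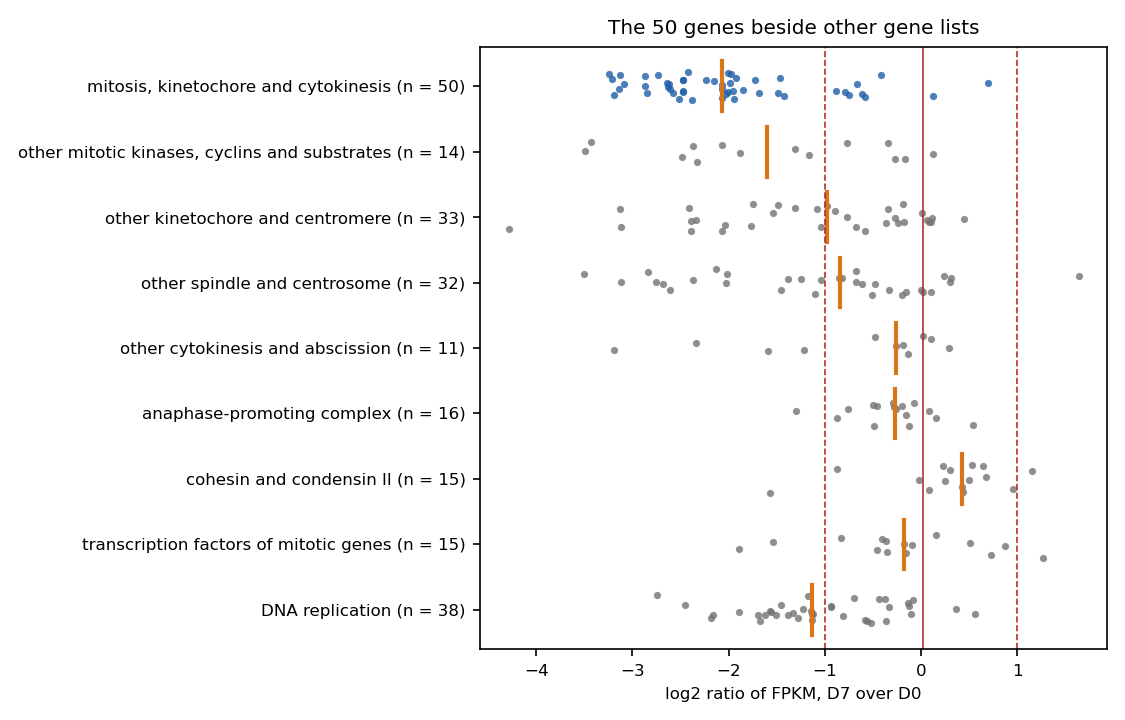
Log2 ratio of FPKM at D7 over D0 (x axis) for single genes (points) in each list (y axis, n is the number of genes above 0 in both libraries), with 1 library per stage; orange bars are list medians, the solid line is the median of all genes and dashed lines mark 2-fold. The median lies at -2.07 for the 50 mitosis, kinetochore and cytokinesis genes, at -1.13 for DNA replication and at 0.43 for cohesin and condensin II.

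Of the 15 transcription factors that act on mitotic promoters, 2 (13.3%) were lower by at least 2-fold and 1 (6.67%) was higher, against 13.2% and 18.5% of all genes, so the share of lower factors is that of all genes. Foxm1, the forkhead activator of G2 and M phase genes, had an FPKM of 3.89 at D0 against 1.05 at D7, a ratio of 0.269. Mybl2, the B-Myb protein that joins the MuvB complex in cycling cells, had 1.22 and 0.420, a ratio of 0.345 (0.218 to 0.541), whose interval reaches above 0.5. The core of MuvB did not follow them. Rbbp4, Lin37 and Lin54 had ratios of 0.776, 0.895 and 0.940, Lin9 of 1.42, and Lin52 stood at 4.74 FPKM at D0 and at 11.4 at D7, a ratio of 2.40 (2.03 to 2.84). The retinoblastoma-like proteins differed, with Rbl1 (p107) at 0.882 (0.706 to 1.10) and Rbl2 (p130), the form that joins the repressor complex in resting cells, at 1.83 (1.69 to 1.99), from 9.29 FPKM at D0 against 17.0 at D7. Their partners E2f4, Tfdp1 and Tfdp2 had ratios of 0.780, 0.560 and 1.66. The NF-Y subunits Nfya, Nfyb and Nfyc, which read the CCAAT box, had ratios of 0.730, 0.753 and 1.11. Scaled to ribosomal protein genes, Foxm1 was at 0.493 and Mybl2 at 0.633, and every other factor named here was above 1. The median log2 ratio in that scaling was 0.69 over the 15 factors and 0.89 over all genes. With a floor of 0.01 and division by the library median, Nfyc was below 1, at 0.870, Lin52 was within 2-fold, at 1.88, and Tfdp1 was past 2-fold lower, at 0.439, so that 3 factors were lower and none was higher.

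DNA replication genes, the list most like the mitotic genes in function, were lower in fewer cases. Of 38, 21 (55.3%) were lower by at least 2-fold and none was higher, against 13.2% and 18.5% of all genes. The median log2 ratio was -1.13. For the mitotic genes, 41 of 50 were lower and the median was -2.07. The difference between the lists was not tested. The lowest ratios were those of Tk1, thymidine kinase, at 0.149 (0.102 to 0.212), whose interval overlaps that of Ccnb2, Orc1, a subunit of the origin recognition complex, at 0.183, and Cdc6, a loader of the replicative helicase, at 0.220. The highest were those of Gins1, Rfc1 and Cdc45, at 0.944, 1.28 and 1.48.

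Several members carry limits of counting or of sequence. Fewer than 20 fragments at D7 lay behind 8 of them, all called lower, and 33 of the 42 others were lower by at least 2-fold. The share over all genes with that many fragments was not computed. In 10 members at least 1% of stretches of 90 bases, the read length, also occur in transcripts of other annotated genes. Of the 40 others, 31 were lower by at least 2-fold, and the share over all genes without such sequence was not computed. The locus given in the table spans another coding gene in 9 members and runs over 1000 bp past the annotated gene in 5. At an FPKM of at least 1 in a library, 37 of 46 members were lower by at least 2-fold, against 11.9% of the 11967 genes tested. With a pseudocount of 1, Cenpe, Cenpf, Espl1, Kif15, Kif20b, Ncapg, Sgol1 and Ttk were within 2-fold, at ratios from 0.534 to 0.726. Scaled to ribosomal protein genes, Ncapg, Spc24, Aurkb, Cdk1, Kif22 and Anln were within 2-fold, at 0.509 to 0.686.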

How the data were processed

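RNA-Seq libraries of D0 and D7 brown adipocyte cultures, 1 each, were analysed. Per the methods, the authors removed duplicate and rRNA reads, used SOAP2 to map the remainder to mm10 and gene sequences with up to 5 mismatches, and deposited an FPKM value per gene and library. The submitters' processing notes also name Bowtie2. The libraries mark strand, but whether counting used it is not given in the sources used here. Of 27324 genes in the table, 3963 carried no value.

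D7 was divided by D0 on the deposited FPKM scale, without a pseudocount for genes above 0 in both libraries. Medians are of log2 ratios. A gene was called at a ratio of at most 0.5 or at least 2. Fragments were recovered from 600 single-exon genes (low values 100% whole within 0.1), and other genes used the length of the named transcript. Intervals are exact Clopper-Pearson at 95%, and 3 fragments were taken as the limit of detection. The calculations were tested on simulated data.

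The members and all gene lists were chosen with earlier results of these data known. All members and all listed transcription factors are named. Of the further mitotic genes, the 5 lowest and 5 highest ratios at an FPKM of at least 1 in a library are named, and of DNA replication the 3 lowest and 3 highest. Promoters were to be shown for Ccnb2, Plk1 and the 3 lowest and 3 highest ratios among members with at least 20 fragments in both libraries. They were limited, after the values were seen, to members with an entry outside chromosome 18 and a RefSeq start within 100 bp of the named transcript. The pairs of members compared were chosen after their values were seen. Alternatives were other scalings, pseudocounts of 0.1 and 1, a filter at an FPKM of 1, sums over rows with the same symbol and a 4-fold limit. Computations ran in Python 3.11.15 with scipy 1.17.1, pandas 2.3.3 and numpy 2.4.6, and plots were drawn with matplotlib 3.10.9.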

Additional observations from a re-analysis of the deposited data

How the results depend on the processing

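The 41 members lower by at least 2-fold became 30 at a 4-fold limit and 45 with a floor of 0.01 and division by the library median, the range over all alternatives tried. They were 35 when libraries were scaled to ribosomal protein genes and 33 with a pseudocount of 1. Of the 46 members with an FPKM of at least 1 in a library, 37 were lower. The genes lower by at least 2-fold in the whole table moved in the same directions. They were 1980 as deposited, 3247 with the floor and library median, 661 with ribosomal protein scaling and 1009 with a pseudocount of 1. For the 4-fold limit, the number over the whole table was not computed. Of the alternatives chosen after seeing the data, at least 20 fragments in both libraries gave 33 of 42 members. Leaving out members with a locus past the gene, with another coding gene in the locus or with shared sequence gave 37, 34 and 31. These removed 5, 9 and 10 of the 50 members. The share over all genes under these filters was not computed. The members' median log2 ratio was -1.20 with ribosomal protein scaling and -1.13 with a pseudocount of 1, and between -2.42 and -1.98 under the others. Ribosomal protein scaling put 1 member, Pttg1, past 2-fold higher. In the whole table it put 6731 genes there, against 2767 as deposited. For the further mitotic genes the median was 0.36 with that scaling, a reversed sign, and -0.87 with the floor and library median. For DNA replication it was -0.26, -1.48 and, with a pseudocount of 1, -0.73. By construction, ribosomal protein scaling shifted log2 ratios by 0.88 and the floor with the library median by -0.35, and a pseudocount of 1 shrinks the ratios of low genes. Cultures of the same stage may differ, which a single library cannot show. No paired analysis was possible because each stage has a single library and the result comes from no test.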
